A study of Mus musculus with 18 samples.

Results

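Transcript levels in hearts of E12.5 mouse embryos were set against those of E9.5 embryos, across the first days of chamber growth. Of the 18 libraries of the series, which covers 5 stages of wild-type hearts, 7 belong to this comparison: 4 from E12.5 and 3 from E9.5. All 7 came from whole hearts dissected from embryos of the inbred strain C57BL/6 with a wild-type genotype, without any treatment, and the labels give each library as a pool of male and female embryos. The groups therefore differ in embryonic day alone as far as the labels say. The title of the series names the mevalonate pathway and the proliferation of heart muscle cells. The members here are all genes: reads were counted for 49315 gene identifiers, and the 18885 with enough reads were tested in one edgeR quasi-likelihood model over all 18 libraries, with Benjamini-Hochberg adjustment over all genes tested. A gene is said to have risen or fallen where its adjusted p was under 0.05. Whether the libraries of one stage stem from different litters is not in the labels, so the p-values describe the spread of these libraries only, part of which may be technical.

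At E9.5 the mouse heart is a looped tube with a thin muscular wall, an outflow tract still receiving cells from the second heart field, and cushions of matrix-rich tissue where valves will form. By E12.5 the chambers have walls with trabeculae and a compact layer, an epicardium covers them, cells that leave the epicardium give rise to fibroblasts and mural cells, and a coronary plexus begins to form. Each library is a pool of whole hearts, so a change in the number of cells of a type cannot be told apart from a change in RNA per cell.

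Library totals were 36361812 to 45646538 counts at E12.5 and 30950152 to 32968212 counts at E9.5, and levels are given in CPM, the counts of a gene per 1000000 counts of the library after TMM scaling. Where a gene had 0 counts, its level may still have been as high as 0.0657 to 0.0825 CPM at E12.5 and 0.0910 to 0.0969 CPM at E9.5, counting error only. In 3 of the 7 libraries (replicate 4 of E12.5 and replicates 2 and 3 of E9.5) the summed level of 8 transcripts of activated macrophages was 2.75, 0.582 and 0.840 CPM, while in the other 4 (replicates 1 to 3 of E12.5 and replicate 1 of E9.5) it was 346 to 676 CPM. They are called macrophage-low and macrophage-high libraries here, names that refer to these 8 transcripts alone. Summed resident macrophage genes had 154, 158, 122 and 116 CPM in replicates 1 to 4 of E12.5. At E9.5 they had 70.5, 23.8 and 22.4 CPM in replicates 1 to 3. Fold changes within each set are given beside some results and for the named genes whose call was different within a set. In a principal component analysis of these 7 libraries over 2000 genes of high variance, the first component held 70.3% of the variance, and on it the E12.5 libraries lay at 53.98, 57.66, 51.98 and 18.15 and the E9.5 libraries at -17.00, -76.54 and -88.22. The stages did not overlap there, and replicate 4 of E12.5 and replicate 1 of E9.5 each stood apart from the other libraries of their stage. Mitochondrially encoded genes took 3.26 to 3.82% of counts at E12.5 and 2.04 to 2.37% at E9.5, and globin genes took 1.62 to 4.87% at E12.5 and 0.498 to 0.791% at E9.5.

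In all, 9212 of 18885 genes, or 48.8%, differed between the stages (edgeR). They comprised 4750 genes that rose, which is 25.2% of those tested, and 4462 that fell, which is 23.6%. The changes were not of like size in both directions. At least 2-fold rises numbered 2196 (11.6%) and at least 2-fold falls 868 (4.6%), and at 16-fold or more the counts were 183 (0.969%) and 30 (0.159%). All E12.5 libraries lay above all E9.5 libraries for 4660 genes (24.7%) and below them for 4289 (22.7%). Within the macrophage-low libraries 4754 genes rose and 4136 fell (25.7% and 22.3% of 18524 tested), and within the macrophage-high libraries 3693 rose and 2954 fell (18.6% and 14.8% of 19907 tested). A stage with 1 library in a set is assumed to vary like the others. The median log2 fold change over all genes tested was 0.0072, with quartiles of -0.34 and 0.51. Genes that rose at least 2-fold took 9.21 ± 1.73% of scaled counts at E12.5 (SD, n = 4) and 2.27 ± 0.305% at E9.5 (SD, n = 3). Those that fell at least 2-fold took 1.73 ± 0.093% at E12.5 and 4.40 ± 0.611% at E9.5. Among 15396 protein-coding genes 4337 rose and 3996 fell, among 632 long intergenic non-coding RNAs 110 rose and 107 fell, and among 734 antisense genes, whose reads cannot be told from those of their partners without a strand setting, 95 rose and 91 fell. The groups of genes described next are lists of known roles, and each count is to be read against the shares of all genes just given.

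**Figure D1:**
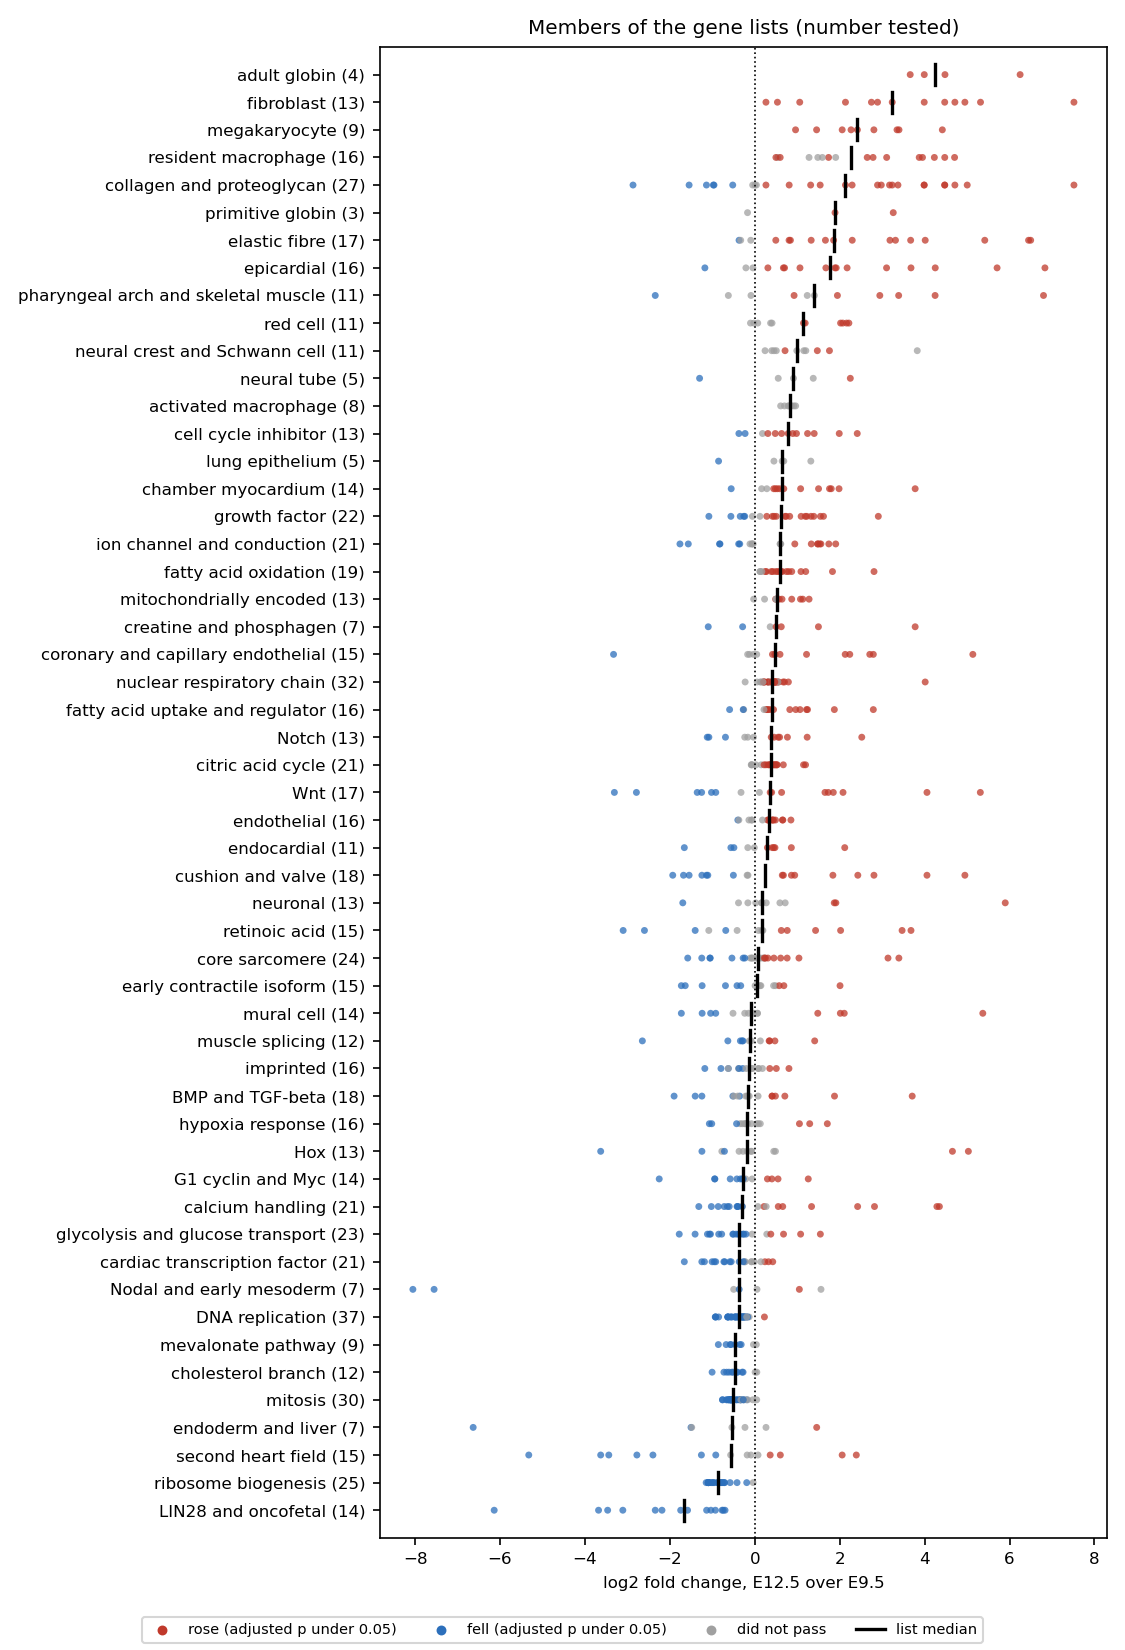
Log2 fold change of E12.5 over E9.5 (x axis) for each tested member of the gene lists (rows), with rises in red, falls in blue, genes that did not pass the test in grey and the list median as a black bar. The dotted line marks the median of all genes tested. Fibroblast, elastic fibre and megakaryocyte lists lie to the right, while LIN28 and oncofetal, ribosome biogenesis and mitosis lists lie to the left.

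The 12 largest rises among protein-coding genes with at least 10 CPM at the higher stage were led by genes of the extracellular matrix. Lumican (Lum; ENSMUSG00000036446, chromosome 10 from 97565128 to 97572703, plus strand in GRCm38), a small leucine-rich proteoglycan that binds collagen fibrils, had 103, 83.5, 73.1 and 78.1 CPM at E12.5, against 0.423, 0.584 and 0.365 CPM at E9.5. Every E12.5 library lay far above every E9.5 library, a 183-fold difference (log2 fold change 7.52 ± 0.28, adjusted p = 1.56e-12). Elastin (Eln; ENSMUSG00000029675, chromosome 5 from 134702593 to 134747323, minus strand), the core of elastic fibres, had 564, 516, 593 and 609 CPM at E12.5, against 7.79, 6.199 and 4.91 CPM at E9.5. Its 4 E12.5 libraries stood close together and well apart from E9.5 (log2 fold change 6.497 ± 0.365, adjusted p = 1.37e-09). Fibulin 5 (Fbln5), which helps assemble elastin, reached 113, 88.02, 106 and 103 CPM at E12.5, against 1.27, 1.33 and 0.897 CPM at E9.5 (log2 fold change 6.45 ± 0.39, adjusted p = 2.96e-09). Lysyl oxidase (Lox), which cross-links collagen and elastin, was even across libraries within each stage, at 54.3, 58.1, 54.1 and 55.6 CPM at E12.5, against 1.298, 1.33 and 1.26 CPM at E9.5 (log2 fold change 5.42 ± 0.16, adjusted p = 1.63e-14). Matrix Gla protein (Mgp), an inhibitor of calcification, averaged 30.6 ± 4.72 CPM at E12.5 and 0.273 ± 0.104 CPM at E9.5 (log2 fold change 6.77 ± 0.31, adjusted p = 3.09e-11).

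Mesothelin (Msln), a surface protein of mesothelial cells, which include the epicardium, had 14.6, 13.4, 19.7 and 11.96 CPM at E12.5, against 0.151, 0.130 and 0.0996 CPM at E9.5. It was near the limit of detection at E9.5 and clearly present in every E12.5 library (log2 fold change 6.83 ± 0.28, adjusted p = 8.01e-13). The other large rises were Clca3a1, of the chloride channel accessory family, the gene for a secreted protein Ccdc3, the phosphodiesterase gene Pde1a, Islr, Gtsf1 and the schlafen family gene Slfn14, with log2 fold changes of 6.17 ± 0.38, 6.09 ± 0.25, 5.49 ± 0.30, 5.52 ± 0.33, 5.75 ± 0.26 and 5.66 ± 0.35. Lack of overlap between the stages was a condition for being named here. Without E9.5 replicate 1 the log2 fold changes of Clca3a1 and Ccdc3 were 7.11 and 6.70. Exons of Ccdc3 share 69.1% of their length with a gene on the opposite strand, so its count is less certain. Slfn14 was the one of the 12 that was low again at later stages, with means of 0.254, 1.25, 13.1, 0.882 and 0.406 CPM over the 5 stages from E9.5 to E16.5.

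Among the 12 largest falls, several genes act in early embryonic signalling or in the LIN28 pathway. As for the rises, lack of overlap between the stages was a condition for being named among them. Tdgf1 (Cripto; ENSMUSG00000032494, chromosome 9 from 110939603 to 110946158, minus strand), the co-receptor for Nodal, had 0.0823, 0.162, 0.182 and 0.0264 CPM at E12.5, against 23.4, 22.5 and 48.7 CPM at E9.5. It was next to absent in all 4 E12.5 libraries (log2 fold change -8.05 ± 0.62, adjusted p = 3.49e-08), and its E9.5 level was highest in replicate 3. Foxh1 (ENSMUSG00000033837, chromosome 15 from 76668225 to 76669948, minus strand), the DNA-binding partner of SMADs in Nodal signalling, had 0.165, 0.0811, 0.272 and 0.132 CPM at E12.5, against 22.4, 25.1 and 48.1 CPM at E9.5 (log2 fold change -7.55 ± 0.39, adjusted p = 5.19e-11). The RNA-binding protein gene Lin28a (ENSMUSG00000050966, chromosome 4 from 134003330 to 134018841, minus strand), which blocks the maturation of let-7 microRNAs, had 1.73, 2.60, 1.82 and 1.82 CPM at E12.5, against 111, 119 and 191 CPM at E9.5. It stayed above the detection limit at E12.5 but was 70.4-fold lower there (log2 fold change -6.14 ± 0.31, adjusted p = 2.79e-10). Protogenin (Prtg), a membrane protein of early embryonic tissue, had 9.71, 11.9, 9.74 and 10.7 CPM at E12.5, against 135, 153 and 235 CPM at E9.5 (log2 fold change -4.05 ± 0.21, adjusted p = 1.32e-10).

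The peptide hormone gene Cck had 0.987, 0.784, 1.25 and 0.238 CPM at E12.5, against 29.8, 34.2 and 59.05 CPM at E9.5, and the pentraxin gene Nptx2 had 0.768, 1.46, 1.20 and 1.37 CPM at E12.5, against 25.5, 32.8 and 54.03 CPM at E9.5. The log2 fold changes of Cck and Nptx2 were -5.64 ± 0.41 and -4.96 ± 0.27 (edgeR, adjusted p = 1.54e-08 and 6.46e-11). Wnt2, a secreted WNT ligand, had 5.95, 8.06, 7.42 and 8.32 CPM at E12.5, against 55.05, 70.98 and 94.98 CPM at E9.5 (log2 fold change -3.31 ± 0.26, adjusted p = 3.32e-08). Atp2a1, which encodes a calcium pump of the sarcoplasmic reticulum best known from fast skeletal muscle, averaged 3.17 ± 0.952 CPM at E12.5 and 29.8 ± 3.93 CPM at E9.5 (log2 fold change -3.23 ± 0.23, adjusted p = 2.26e-09), and 21.9% of its exon length lies under a gene on the opposite strand. Car4, a membrane-bound carbonic anhydrase that marks capillary endothelium in later tissue, fell in the same way, to 2.41, 2.54, 1.97 and 2.35 CPM at E12.5 against 17.8, 21.7 and 30.4 CPM at E9.5 (log2 fold change -3.33 ± 0.24, adjusted p = 2.26e-09). The remaining falls were Aox4, Trim71 and Sall4 (-3.64 ± 0.27, -3.68 ± 0.22 and -3.47 ± 0.18 on the log2 scale).

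**Figure D2:**
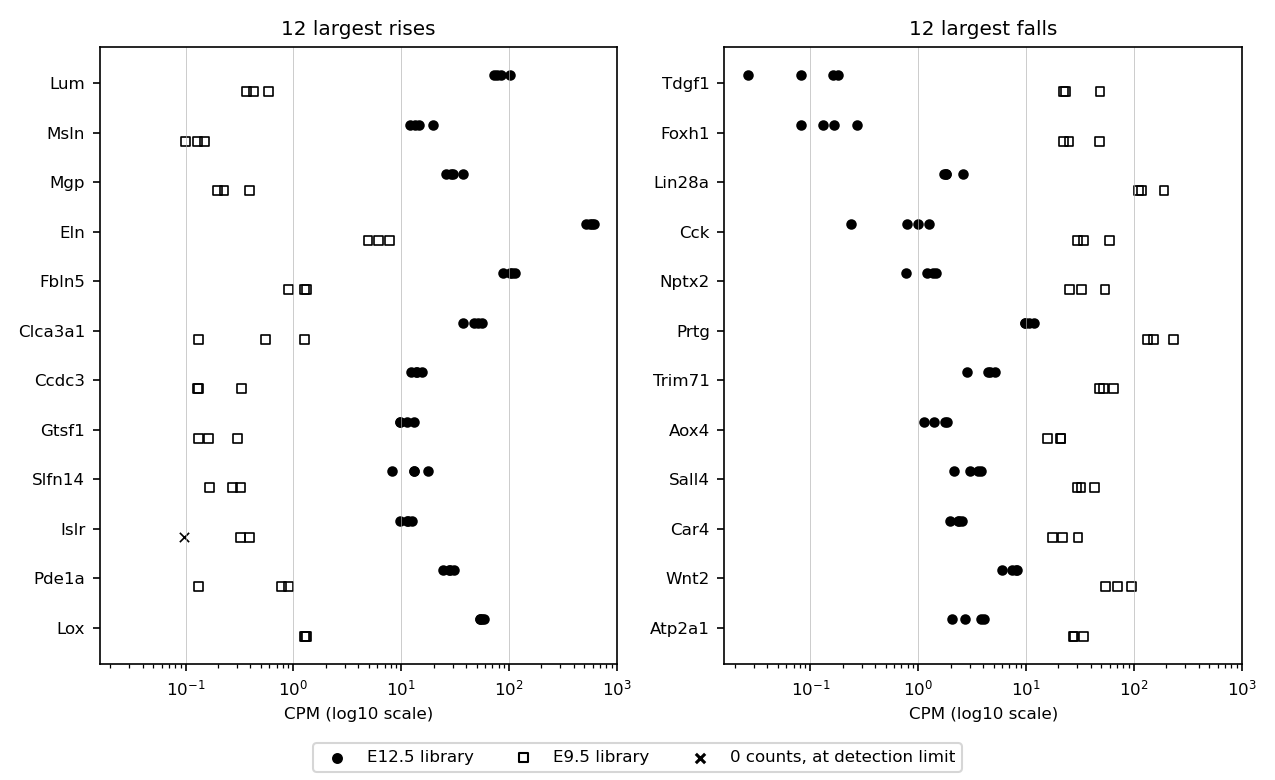
CPM of the 12 largest rises (left) and the 12 largest falls (right) in each library on a log10 axis, with E12.5 libraries as filled circles drawn above the E9.5 libraries, shown as open squares. A library at 0 counts is drawn at its detection limit as a cross. Only genes without overlap between the stages were chosen.

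The rise of matrix genes extended over whole groups. Of 17 elastic fibre genes 14 rose and 1 fell, with a median log2 fold change of 1.86. Ltbp3, which binds latent TGF-beta, averaged 88.9 ± 12.46 CPM at E12.5 and 5.49 ± 1.06 CPM at E9.5 (log2 fold change 4.01 ± 0.15, adjusted p = 3.57e-13). The microfibril gene Mfap2 averaged 104 ± 12.01 CPM at E12.5 and 28.8 ± 1.80 CPM at E9.5 (log2 fold change 1.86 ± 0.094, adjusted p = 9.94e-12). Fibrillin 1 (Fbn1), the main protein of microfibrils, was already well detected at E9.5, averaging 170.3 ± 33.7 CPM at E12.5 and 121 ± 29.1 CPM at E9.5 (log2 fold change 0.49 ± 0.20, adjusted p = 0.0487), and its adjusted p was 0.0553 to 0.21 when any one of E12.5 replicate 2, E12.5 replicate 3, E12.5 replicate 4, E9.5 replicate 1 and E9.5 replicate 2 was left out. Of 27 collagen and proteoglycan genes 18 rose and 6 fell. The fibrillar collagen gene Col1a1 had 577, 619, 486 and 639.8 CPM at E12.5, against 21.98, 48.7 and 38.9 CPM at E9.5 (log2 fold change 3.99 ± 0.24, adjusted p = 1.32e-09). Col3a1, another fibrillar collagen gene, had 1001, 940.0, 779.8 and 988 CPM at E12.5, against 135, 139.8 and 99.7 CPM at E9.5 (log2 fold change 2.89 ± 0.12, adjusted p = 8.93e-13). Biglycan (Bgn) and decorin (Dcn), proteoglycans of the same family as lumican, rose with log2 fold changes of 3.17 ± 0.14 and 4.47 ± 0.30.

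Falling members of the matrix lists included genes of cartilage and of cushion matrix. Col2a1, the collagen of cartilage that is also made in the embryonic heart, had 96.2, 106, 95.7 and 124 CPM at E12.5, against 619.7, 726 and 962 CPM at E9.5 (log2 fold change -2.87 ± 0.16, adjusted p = 1.34e-10). Versican (Vcan), the large proteoglycan of cardiac jelly, had 401, 466, 389 and 473 CPM at E12.5, against 728, 1007 and 1120.1 CPM at E9.5 (log2 fold change -1.14 ± 0.17, adjusted p = 3.63e-05). Has2, which makes the hyaluronan of cardiac jelly, averaged 21.5 ± 3.42 CPM at E12.5 and 82.2 ± 14.9 CPM at E9.5 (log2 fold change -1.93 ± 0.18, adjusted p = 8.47e-08). The cushion and valve list as a whole was divided, with 9 of 18 members higher and 7 lower. On its rising side were periostin (Postn), a matrix protein of maturing valves and fibroblasts, with 508, 361, 317 and 352 CPM at E12.5, against 17.6, 14.7 and 4.88 CPM at E9.5 (log2 fold change 4.95 ± 0.364, adjusted p = 3.53e-08), the cadherin gene Cdh11 (2.81 ± 0.14) and the transcription factor genes Snai2 (2.43 ± 0.13), Twist1 (0.94 ± 0.19) and Sox9 (0.65 ± 0.17). The WNT ligand gene Wnt9b, which is expressed in endocardium, had 9.73, 10.7, 10.2 and 10.1 CPM at E12.5, against 0.423, 0.584 and 0.830 CPM at E9.5 (log2 fold change 4.06 ± 0.33, adjusted p = 7.46e-09).

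All 13 tested fibroblast markers rose, with a median log2 fold change of 3.24, although 7 of them are matrix genes that are also counted above. Pdgfra, the receptor that marks fibroblasts and other mesenchyme, averaged 121 ± 16.01 CPM at E12.5 and 58.1 ± 14.2 CPM at E9.5 (log2 fold change 1.06 ± 0.16, adjusted p = 3.04e-05). Dermatopontin (Dpt), a marker of later fibroblasts, had 5.92, 5.24, 5.61 and 4.04 CPM at E12.5, against 0.302, 0 and 0.0664 CPM at E9.5 and so was at or near the floor of detection at E9.5, where replicate 2 had no read. Osteoglycin (Ogn) averaged 12.3 ± 2.18 CPM at E12.5 and 0.462 ± 0.209 CPM at E9.5 (log2 fold change 4.71 ± 0.24, adjusted p = 2.77e-11).

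Epicardial markers rose in 13 of 16 cases, with a median log2 fold change of 1.78, and by very different amounts. Wt1, the transcription factor gene used most often to mark the epicardium, had 35.5, 39.3, 40.7 and 39.1 CPM at E12.5, against 33.3, 37.3 and 23.1 CPM at E9.5. Those ranges overlapped, and the change was small (log2 fold change 0.31 ± 0.11, adjusted p = 0.024), with an adjusted p of 0.0576 without E12.5 replicate 3 and 0.195 without E9.5 replicate 3. Tbx18 averaged 62.6 ± 5.06 CPM at E12.5 and 39.2 ± 9.80 CPM at E9.5 (log2 fold change 0.67 ± 0.12, adjusted p = 0.000156). Tcf21, a factor of epicardial cells on the way to fibroblasts, had 62.2, 70.7, 68.8 and 61.4 CPM at E12.5, against 23.8, 18.4 and 9.96 CPM at E9.5 (log2 fold change 1.92 ± 0.19, adjusted p = 3.63e-07). Aldh1a2, the epicardial enzyme for retinoic acid synthesis, had 42.01, 56.8, 47.99 and 44.1 CPM at E12.5, against 4.53, 4.19 and 2.42 CPM at E9.5 (log2 fold change 3.68 ± 0.20, adjusted p = 8.34e-11). The keratin gene Krt7 averaged 27.4 ± 3.91 CPM at E12.5 and 1.43 ± 0.872 CPM at E9.5 (log2 fold change 4.25 ± 0.31, adjusted p = 1.11e-08). Wt1 and Tbx18 thus differed by less than 1 unit on the log2 scale while Msln, Krt7 and Aldh1a2 differed by more than 3. Within the macrophage-low libraries, with 1 against 2, 5 of 16 rose and 1 fell, and within the macrophage-high libraries, with 3 against 1, 11 rose and 1 fell. The medians within the sets were 1.88 and 1.41.

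Mural cell genes went both ways, with 4 of 14 higher and 4 lower. The pericyte receptor gene Pdgfrb averaged 59.4 ± 2.59 CPM at E12.5 and 13.8 ± 1.62 CPM at E9.5 (log2 fold change 2.11 ± 0.10, adjusted p = 2.56e-12). Mcam (2.02 ± 0.10), Rgs5 (1.48 ± 0.18) and the potassium channel gene Kcnj8 (5.37 ± 0.26) rose as well, Kcnj8 with 4.39, 3.68, 4.31 and 4.01 CPM at E12.5, against 0.0604, 0.130 and 0.0996 CPM at E9.5. The falling members included genes of the smooth muscle contractile apparatus, among them Acta2 and Tagln, which early heart muscle also expresses. Acta2 had 1066, 932, 915 and 1002 CPM at E12.5, against 2979.8, 3029.6 and 3731 CPM at E9.5, a clear separation (log2 fold change -1.73 ± 0.10, adjusted p = 7.75e-11). Tagln averaged 141 ± 11.6 CPM at E12.5 and 334 ± 39.3 CPM at E9.5 (log2 fold change -1.24 ± 0.18, adjusted p = 1.94e-05), with 67.9% of its exons under an antisense gene. Myh11, specific for smooth muscle, had 4.66, 5.49, 2.16 and 4.70 CPM at E12.5, against 4.08, 7.63 and 14.51 CPM at E9.5. Its ranges overlapped, its adjusted p was 0.0357 over all libraries and 0.0506 to 0.352 when any one of E12.5 replicate 1, E12.5 replicate 3, E12.5 replicate 4, E9.5 replicate 2 and E9.5 replicate 3 was left out, and its log2 fold change was -1.20 within the macrophage-low and 0.0039 within the macrophage-high libraries.

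Endothelial genes changed modestly: 10 of 16 rose and 1 fell, with a median log2 fold change of 0.33 and no member at 2-fold. Pecam1, the adhesion molecule CD31, had 153, 152, 157 and 157 CPM at E12.5, against 99.2, 98.2 and 95.8 CPM at E9.5, without overlap (log2 fold change 0.66 ± 0.063, adjusted p = 5.34e-08). Cdh5, the cadherin of endothelial junctions, averaged 202 ± 20.2 CPM at E12.5 and 162 ± 26.1 CPM at E9.5 (log2 fold change 0.31 ± 0.10, adjusted p = 0.0158), with an adjusted p of 0.0598 without E12.5 replicate 4 and 0.0972 without E9.5 replicate 1. Kdr, the receptor VEGFR2, was the member that fell (log2 fold change -0.40 ± 0.12, adjusted p = 0.0113), with an adjusted p of 0.107 without E9.5 replicate 3. Emcn, a sialomucin of endothelium, averaged 53.6 ± 2.54 CPM at E12.5 and 29.7 ± 8.55 CPM at E9.5 (log2 fold change 0.85 ± 0.13, adjusted p = 1.6e-05). Genes used as markers of coronary and capillary endothelium moved further, 9 of 15 up and 1, Car4, down. The peptide hormone gene Apln of sprouting coronary vessels had 6.99, 6.89, 6.97 and 8.45 CPM at E12.5, against 1.6003, 1.72 and 1.33 CPM at E9.5 (log2 fold change 2.24 ± 0.15, adjusted p = 3.33e-10). The water channel gene Aqp1 had 59.6, 55.3, 62.1 and 65.03 CPM at E12.5, against 8.15, 8.76 and 10.9 CPM at E9.5 (log2 fold change 2.71 ± 0.12, adjusted p = 1.09e-12). The chemokine gene Cxcl12 averaged 223 ± 11.95 CPM at E12.5 and 50.9 ± 3.15 CPM at E9.5 (log2 fold change 2.13 ± 0.11, adjusted p = 8.29e-12). Fabp4, a fatty acid binding protein of capillary endothelium that macrophages also make, was less even, with 9.60, 7.49, 7.22 and 3.17 CPM at E12.5, against 2.39, 0.389 and 0.0996 CPM at E9.5. Among its E9.5 libraries the macrophage-high one was highest, and among its E12.5 libraries the macrophage-low one was lowest; with the library set as a term beside the stage Fabp4 still rose (adjusted p = 1.87e-05), and its log2 fold change was 2.79 ± 0.69 over all and 4.79 without E9.5 replicate 1.

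Endocardial genes split 6 up and 3 down of 11, with 3 up without E9.5 replicate 2. Npr3, a natriuretic peptide receptor of the endocardium, averaged 186 ± 16.3 CPM at E12.5 and 134 ± 4.10 CPM at E9.5 (log2 fold change 0.48 ± 0.081, adjusted p = 6.89e-05). The secreted matrix protein gene Smoc1 averaged 17.3 ± 1.73 CPM at E12.5 and 3.98 ± 1.75 CPM at E9.5 (log2 fold change 2.12 ± 0.19, adjusted p = 2.17e-08). Nfatc1, the transcription factor of valve endocardium, fell (log2 fold change -0.49 ± 0.092, adjusted p = 0.000168), as did neuregulin 1 (Nrg1), the endocardial signal for trabeculation (log2 fold change -0.56 ± 0.14, adjusted p = 0.00265).

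Heart muscle genes did not move as one block. Of 24 core sarcomere genes 9 rose, 7 fell and 8 did not pass the test, with a median log2 fold change of 0.087, and their summed level was 39969 to 42732 CPM at E12.5 and 43980.3 to 48974 CPM at E9.5. Within the macrophage-high libraries 4 rose and 4 fell. Cardiac actin (Actc1) had 8892, 7966, 8699 and 8772 CPM at E12.5, against 9899.8, 9916 and 11316 CPM at E9.5 and fell slightly (log2 fold change -0.27 ± 0.076, adjusted p = 0.00553), with an adjusted p of 0.0546 without E9.5 replicate 3. Alpha myosin heavy chain (Myh6), the fast form that is later confined to the atria before birth, had 2833, 2636, 2346 and 3347 CPM at E12.5, against 4772, 5894 and 6746 CPM at E9.5, lower in every E12.5 library (log2 fold change -1.06 ± 0.16, adjusted p = 1.85e-05). Beta myosin heavy chain (Myh7), the ventricular form before birth, had 5679, 5366, 5529 and 6119 CPM at E12.5, against 4413, 5077 and 5383 CPM at E9.5 and did not pass the test (log2 fold change 0.19 ± 0.14, adjusted p = 0.273). The ventricular regulatory light chain gene Myl2 had 3119, 2862, 3297 and 2407 CPM at E12.5, against 1738, 1350.4 and 1174 CPM at E9.5 (log2 fold change 1.04 ± 0.13, adjusted p = 2.67e-06). The Z-disc genes Myoz2 and Tcap both rose. Myoz2, which binds calcineurin, had 109.9, 94.8, 107 and 102 CPM at E12.5, against 12.4, 9.74 and 7.31 CPM at E9.5 (log2 fold change 3.39 ± 0.14, adjusted p = 9.01e-13). Tcap rose by less (log2 fold change 0.76 ± 0.086, adjusted p = 4.93e-07). The M-band gene Myom2 had low levels, at 5.76, 4.05, 4.70 and 5.04 CPM at E12.5, against 0.694, 0.454 and 0.498 CPM at E9.5 (log2 fold change 3.14 ± 0.32, adjusted p = 5.58e-07). In the list of early contractile isoforms, skeletal actin (Acta1) had 242, 235, 208 and 235 CPM at E12.5, against 640.3, 673 and 834 CPM at E9.5, lower in every E12.5 library (log2 fold change -1.64 ± 0.10, adjusted p = 6.6e-11), and slow skeletal troponin I (Tnni1) averaged 1381 ± 126 CPM at E12.5 and 1374 ± 91.8 CPM at E9.5 (log2 fold change 0.0076 ± 0.10, adjusted p = 0.959).

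Isoform balances were computed per library as the share of one gene in the sum of a pair, after division of each level by exon length. Alpha myosin heavy chain made up 38.99, 38.6, 35.2 and 41.2% at E12.5, against 58.1, 59.8 and 61.6% at E9.5 of the myosin heavy chain pair. The E12.5 libraries lay well below those of E9.5 without overlap. Cardiac troponin I (Tnni3) took 36.2 ± 1.57% at E12.5 and 29.5 ± 0.642% at E9.5 of its pair with Tnni1, and Myl2 took 39.3 ± 4.43% at E12.5 and 13.2 ± 2.78% at E9.5 of its pair with the atrial light chain gene Myl7. The heart and muscle form of creatine kinase (Ckm) took 24.01, 21.8, 24.3 and 18.2% at E12.5, against 1.67, 0.828 and 0.440% at E9.5 of its pair with the brain form Ckb. Muscle enolase (Eno3) took 36.5 ± 0.669% at E12.5 and 25.4 ± 0.300% at E9.5 of its pair with Eno1, although Eno3 itself was lower at E12.5 (log2 fold change -0.361 ± 0.076, adjusted p = 0.000529), as Eno1 was by more (-1.12 ± 0.085). The heart form of lactate dehydrogenase (Ldhb) took 33.7, 32.5, 29.1 and 30.9% at E12.5, against 9.22, 8.54 and 6.30% at E9.5 of its pair with Ldha, again with every E12.5 library above every E9.5 library. The insulin-responsive glucose transporter gene Slc2a4 took 5.43 ± 0.350% at E12.5 and 1.01 ± 0.0703% at E9.5 of its pair with Slc2a1. Carnitine palmitoyltransferase 1b, the muscle form, took 61.6 ± 1.58% at E12.5 and 91.00 ± 3.34% at E9.5 of its pair with the liver form Cpt1a. Lin28b took 66.1 ± 3.70% at E12.5 and 11.5 ± 2.29% at E9.5 of its pair with Lin28a, both of which fell. The subunit Cox7a1 was the one pair whose ranges overlapped, at 33.02, 37.3, 44.3 and 31.7% at E12.5, against 39.4, 32.7 and 31.5% at E9.5. Over the 15 pairs compared, the other 14 did not overlap, and the two-sided exact permutation p was 0.0571 for each of them and 0.686 for the Cox7a pair, or 0.0612 and 0.686 after Benjamini-Hochberg adjustment over the 15. With 4 libraries against 3 this design cannot give a p below 0.0571, so no share can pass a threshold of 0.05.

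**Figure D3:**
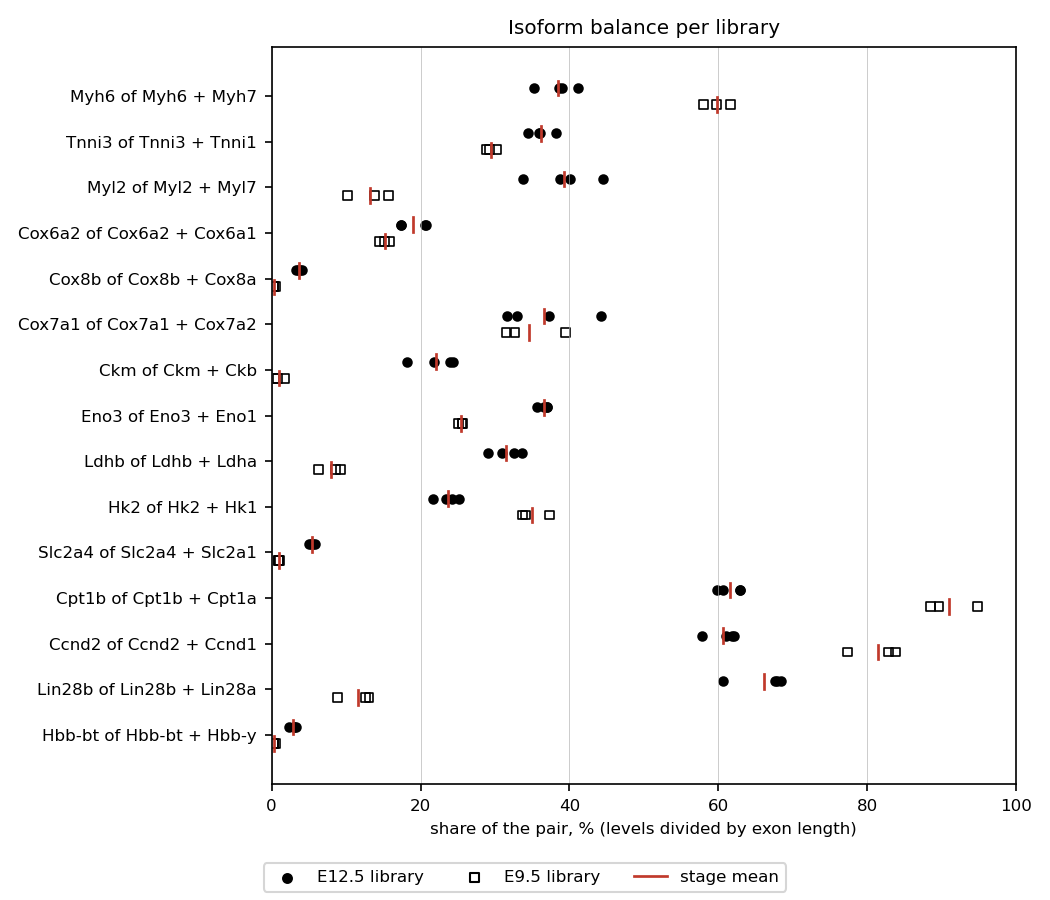
Share (%, x axis) of the first-named gene in the length-scaled sum of each of the 15 isoform pairs (rows), for each library, with E12.5 as filled circles above E9.5 as open squares and the stage mean as a vertical bar. The shares of Myl2, Ldhb, Ckm and Lin28b lie higher at E12.5, and those of Myh6, Cpt1b, Ccnd2 and Hk2 lie lower.

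Genes of chamber myocardium, the working muscle that balloons out from the tube, rose in 11 of 14 cases and fell in 1, with a median log2 fold change of 0.63. Natriuretic peptide A (Nppa), made in trabeculae and atria, had 1868, 1529, 1994 and 1543 CPM at E12.5, against 677, 446 and 370.1 CPM at E9.5 (log2 fold change 1.80 ± 0.17, adjusted p = 1e-07), though 61.5% of its exons lie under an antisense gene. The gap junction gene Gja5 (connexin 40) averaged 198 ± 20.2 CPM at E12.5 and 69.9 ± 15.4 CPM at E9.5 (log2 fold change 1.502 ± 0.12, adjusted p = 4.07e-09). Gja1 (connexin 43), the main ventricular connexin, had 348, 313, 328 and 351 CPM at E12.5, against 98.5, 85.6 and 69.9 CPM at E9.5 and separated the stages completely (log2 fold change 1.98 ± 0.12, adjusted p = 6.67e-11). The transcriptional co-factor gene Cited1 averaged 242 ± 27.6 CPM at E12.5 and 71.5 ± 17.9 CPM at E9.5 (log2 fold change 1.76 ± 0.13, adjusted p = 1.36e-09). Smaller differences were seen in Bmp10, a growth signal of trabeculae (log2 fold change 0.49 ± 0.13, adjusted p = 0.00373), and in Hey2, a factor of the compact layer (log2 fold change 0.59 ± 0.075, adjusted p = 2.54e-06). Nppb overlapped between the stages, with 157, 260.0, 259.7 and 163 CPM at E12.5, against 184, 125 and 127 CPM at E9.5 (adjusted p = 0.0409). The adjusted p of Nppb was 0.101 with the library set as a term and 0.117 to 0.155 when any one of E12.5 replicate 2, E12.5 replicate 3, E9.5 replicate 2 and E9.5 replicate 3 was left out.

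Calcium handling genes went both ways, 8 up and 10 down of 21, and 6 up and 6 down within the macrophage-high libraries. The calcium pump Atp2a2 averaged 1900.0 ± 171 CPM at E12.5 and 2503 ± 267 CPM at E9.5 and fell slightly (log2 fold change -0.40 ± 0.077, adjusted p = 0.000253). Phospholamban (Pln), the inhibitor of that pump, moved the other way and had 704, 671, 701 and 691 CPM at E12.5, against 176, 132 and 78.5 CPM at E9.5. The E12.5 libraries were even, whereas E9.5 ranged more widely and was always lower (log2 fold change 2.42 ± 0.21, adjusted p = 5.9e-08). Sarcolipin (Sln), another inhibitor of calcium pumps, found in atria, had 11.5, 13.4, 14.2 and 10.3 CPM at E12.5, against 1.03, 0.325 and 0.432 CPM at E9.5 (log2 fold change 4.35 ± 0.41, adjusted p = 4.94e-07, or 5.02 without E9.5 replicate 1). The ryanodine receptor gene Ryr2 had 151, 280.4, 199 and 250.1 CPM at E12.5, against 271, 501 and 571 CPM at E9.5, an overlap of 1 E12.5 library with 1 of E9.5 (log2 fold change -1.02 ± 0.21, adjusted p = 0.000851), and its log2 fold change was -1.07 within the macrophage-low and -0.362 within the macrophage-high libraries. The calcium channel genes Cacna1d and Cacnb2 fell (-1.32 ± 0.17 and -0.64 ± 0.10), as did the calsequestrin gene Casq1 (-0.72 ± 0.10).

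Of 21 other ion channel and conduction genes 8 rose and 6 fell. The pacemaker channel gene Hcn4, which is expressed widely in the early tube and later in the sinus node, had 43.00, 64.6, 48.1 and 64.3 CPM at E12.5, against 109, 175 and 205 CPM at E9.5 (log2 fold change -1.57 ± 0.23, adjusted p = 4.17e-05). Potassium channel genes that rose included Kcne1, a regulatory subunit, with 38.3, 32.8, 41.02 and 33.2 CPM at E12.5, against 10.02, 11.7 and 10.9 CPM at E9.5 (log2 fold change 1.74 ± 0.12, adjusted p = 3.86e-10), and its pore-forming partner Kcnq1 (1.53 ± 0.12). The leak channel gene Kcnk3 averaged 82.5 ± 4.76 CPM at E12.5 and 29.5 ± 4.37 CPM at E9.5 (log2 fold change 1.48 ± 0.11, adjusted p = 9.72e-10).

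Transcription factors of the heart field and early tube were mostly lower: 13 of 21 fell and 3 rose. Nkx2-5, one of the first cardiac factors, had 195, 201, 250.4 and 232 CPM at E12.5, against 303, 367 and 407 CPM at E9.5, without overlap (log2 fold change -0.71 ± 0.15, adjusted p = 0.000859). Gata5 (log2 fold change -1.66 ± 0.15, adjusted p = 7.5e-08), Hand1, a factor of the outer curvature and left ventricle (log2 fold change -1.19 ± 0.12, adjusted p = 2.03e-07), and Mef2c (log2 fold change -0.73 ± 0.08, adjusted p = 3.36e-07) fell further or by a like amount. Tbx5 (log2 fold change -0.59 ± 0.11, adjusted p = 0.000108) and Gata4 (log2 fold change -0.24 ± 0.07, adjusted p = 0.00776) fell by less, Gata4 with an adjusted p of 0.0941 without E9.5 replicate 3. Hand2 averaged 159 ± 14.1 CPM at E12.5 and 161 ± 18.3 CPM at E9.5 (log2 fold change -0.013 ± 0.11, adjusted p = 0.934).

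Markers of the second heart field fell in 7 and rose in 4 of 15 cases, at least 2-fold in 6 and 2. Log2 fold changes over the list ran from -5.32 to 2.39, and the genes described next include none that rose. The growth factor gene Fgf8 had 0.137, 0.162, 0.114 and 0.132 CPM at E12.5, against 3.96, 5.19 and 7.54 CPM at E9.5, close to the detection limit at E12.5 (log2 fold change -5.32 ± 0.46, adjusted p = 1.28e-08). Fgf10 had 1.12, 1.95, 1.61 and 1.66 CPM at E12.5, against 8.48, 9.77 and 14.4 CPM at E9.5 (log2 fold change -2.78 ± 0.22, adjusted p = 5.04e-09). Isl1, the factor that defines this progenitor field, had 4.74, 4.24, 4.47 and 4.75 CPM at E12.5, against 9.66, 10.1 and 12.9 CPM at E9.5 (log2 fold change -1.26 ± 0.23, adjusted p = 0.000119). Nkx2-6, active in the pharynx and outflow tract, averaged 0.259 ± 0.121 CPM at E12.5 and 2.87 ± 0.901 CPM at E9.5 (log2 fold change -3.44 ± 0.37, adjusted p = 2.46e-07). Tbx1 was under 1 CPM in every library and did not pass the test. Among Hox genes, which mark the posterior part of that field, 3 of 13 fell, Hoxb1, Hoxb2 and Hoxb3, beside 23.6% of all genes. The 2 Hox genes that rose did so at least 2-fold, and log2 fold changes over the list ran from -3.63 to 5.03. The Hox median was -0.87 within the macrophage-low and 0.15 within the macrophage-high libraries.

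LIN28 and oncofetal genes, which are active in embryonic growth and silenced later, fell without exception. All 14 members tested passed, at least 2-fold in 10, with a median log2 fold change of -1.66, and all 14 were also lower within the macrophage-low and within the macrophage-high libraries. Beside Lin28a, its paralogue Lin28b had 8.47, 9.06, 8.72 and 8.63 CPM at E12.5, against 37.8, 38.9 and 42.3 CPM at E9.5 (log2 fold change -2.19 ± 0.12, adjusted p = 4.13e-11). The chromatin protein gene Hmga2, a known let-7 target, had 121, 119.8, 112 and 119 CPM at E12.5, against 389, 383 and 415 CPM at E9.5, very even within each stage (log2 fold change -1.75 ± 0.092, adjusted p = 1.53e-11). The ubiquitin ligase gene Trim71, another let-7 target, had 2.82, 4.68, 5.199 and 4.49 CPM at E12.5, against 52.4, 47.97 and 65.3 CPM at E9.5 (log2 fold change -3.68 ± 0.22, adjusted p = 3.25e-10). Arid3b (-2.34 ± 0.12), the mRNA-binding protein gene Igf2bp1 (-1.03 ± 0.10) and the zinc finger gene Sall4 fell too, Sall4 with 3.87, 2.16, 3.04 and 3.59 CPM at E12.5, against 32.4, 29.7 and 42.9 CPM at E9.5.

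Of 12 RNA-binding proteins that control muscle splicing, 4 rose and 5 fell. Mbnl1 rose (log2 fold change 0.35 ± 0.093, adjusted p = 0.00381). Celf1, which acts against it on many exons, averaged 267 ± 7.98 CPM at E12.5 and 415 ± 16.7 CPM at E9.5 (log2 fold change -0.63 ± 0.058, adjusted p = 2.92e-08). Rbm20, the titin splicing factor, averaged 117 ± 10.8 CPM at E12.5 and 107 ± 16.3 CPM at E9.5 and did not pass (log2 fold change 0.13 ± 0.10, adjusted p = 0.311), though it rose with the library set as a term (adjusted p = 0.014). Without E12.5 replicate 3, 3 genes of this list fell.

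Genes of DNA replication and mitosis were mostly lower, by small amounts. Of 37 DNA replication genes 32 fell and 1 rose, with a median log2 fold change of -0.37 and none at 2-fold. The helicase subunit gene Mcm5 had 127, 126, 123 and 141 CPM at E12.5, against 195, 202 and 202 CPM at E9.5 (log2 fold change -0.63 ± 0.061, adjusted p = 6.42e-08). The helicase loading factor gene Cdc6 had 37.4, 35.3, 31.1 and 41.00 CPM at E12.5, against 65.04, 65.6 and 65.3 CPM at E9.5 (log2 fold change -0.85 ± 0.092, adjusted p = 2.7e-07). Both genes separated the stages without overlap. Mcm10 (-0.92 ± 0.086), the thymidylate synthase gene Tyms (-0.64 ± 0.065), Mcm2 (-0.47 ± 0.079) and the sliding clamp gene Pcna (-0.39 ± 0.077) fell as well. Of 30 mitotic genes 25 fell and none rose, with a median of -0.52. The kinesin gene Kif23, needed for cytokinesis, had 88.9, 81.9, 78.6 and 86.8 CPM at E12.5, against 133, 140.2 and 154 CPM at E9.5 (log2 fold change -0.76 ± 0.073, adjusted p = 4.85e-08). The mitotic kinase gene Aurka had 77.2, 69.4, 76.1 and 75.6 CPM at E12.5, against 118, 113 and 121 CPM at E9.5 (log2 fold change -0.65 ± 0.062, adjusted p = 5.19e-08). Cyclin B1 (Ccnb1) and Cdk1 fell by less (-0.60 ± 0.076 and -0.32 ± 0.066). Mki67, the common proliferation marker, had 248, 271, 312 and 292 CPM at E12.5, against 234, 406 and 418 CPM at E9.5. It overlapped between the stages and did not pass (log2 fold change -0.33 ± 0.16, adjusted p = 0.107), but did without E9.5 replicate 1 (-0.55, adjusted p = 0.00116), and its log2 fold change was -0.47 within the macrophage-low and 0.25 within the macrophage-high libraries.

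Most inhibitors of the cell cycle moved the other way, with 10 of 13 higher and 2 lower and a median log2 fold change of 0.79. Their summed level, most of it from Cdkn1c, did not rise. It was 1497 to 1701 CPM at E12.5 and 1692 to 1876 CPM at E9.5. The CDK4 and CDK6 inhibitor gene Cdkn2c (p18) had 22.9, 20.1, 22.8 and 21.8 CPM at E12.5, against 3.77, 4.32 and 4.25 CPM at E9.5 (log2 fold change 2.41 ± 0.12, adjusted p = 4.95e-12). Rbl2 and Rb1 of the retinoblastoma family averaged 34.2 ± 2.76 CPM at E12.5 and 12.97 ± 1.98 CPM at E9.5 and 18.9 ± 2.06 CPM at E12.5 and 9.59 ± 0.616 CPM at E9.5 (1.40 ± 0.11 and 0.98 ± 0.11 on the log2 scale). Cdkn1b (p27) averaged 96.8 ± 5.27 CPM at E12.5 and 62.5 ± 4.97 CPM at E9.5 (log2 fold change 0.63 ± 0.077, adjusted p = 1.39e-06). Cdkn1c (p57) fell, with 1098, 1026, 1193 and 1137 CPM at E12.5, against 1529, 1448 and 1354 CPM at E9.5 (log2 fold change -0.37 ± 0.068, adjusted p = 0.000141), and 30.6% of its exons lie under a gene on the opposite strand. Among G1 cyclins, Ccnd2 had 433, 454, 444 and 433 CPM at E12.5, against 888, 859 and 801 CPM at E9.5 (log2 fold change -0.95 ± 0.059, adjusted p = 1.57e-10). Ccnd1 rose (log2 fold change 0.55 ± 0.12, adjusted p = 0.00116) and Ccne1 averaged 28.3 ± 1.36 CPM at E12.5 and 54.2 ± 1.90 CPM at E9.5 (log2 fold change -0.94 ± 0.07, adjusted p = 1.72e-09). Myc did not pass the test (log2 fold change -0.21 ± 0.12, adjusted p = 0.146).

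Genes of ribosome biogenesis fell nearly as a whole: 24 of 25 were lower and none higher, with a median log2 fold change of -0.88, and 9 fell at least 2-fold. Nucleolin (Ncl), which acts in the transcription and processing of ribosomal RNA, had 565, 578, 554 and 605 CPM at E12.5, against 1239, 1225 and 1222 CPM at E9.5. Each stage was tight, and the E9.5 libraries were all far above those of E12.5 (log2 fold change -1.09 ± 0.07, adjusted p = 2.14e-10). Nucleophosmin (Npm1), a nucleolar chaperone, averaged 826 ± 48.4 CPM at E12.5 and 1650.2 ± 222 CPM at E9.5 (log2 fold change -0.998 ± 0.086, adjusted p = 1.26e-08). Nolc1 (-1.09 ± 0.069), the pseudouridine synthase gene Dkc1 (-0.88 ± 0.056), the helicase gene Ddx21 (-1.10 ± 0.071) and Polr1b, a subunit of RNA polymerase I (-0.98 ± 0.085), fell by like amounts.

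The promoters of these 3 groups, which fell together, were searched for short motifs by which such genes are known to be recognised. Promoters are those of RefSeq in GRCm38.p6, from 250 bases before to 50 after each start, and were read on both strands. The letters searched for E2F were TTCCCGC, the variant TTCGCGC, the variant TTGCCGC and lastly the variant TTGGCGC. At least one of these was in 64.7% of 34 promoters of 30 DNA replication genes and in 9.57% of all 32851 promoters. In the mitotic genes, TTTGAA, the cell cycle homology region, was in 80.8% of 26 promoters of 24 genes, against 17.9% of all, and CCAAT was in 84.6%, against 37.4% of all. CACGTG, the E-box bound by MYC among others, was in 16.7% of 30 promoters of 22 ribosome biogenesis genes and in 7.15% of all. E2F forms can overlap one another where they are read on opposite strands, and a match describes the letters only. For each group the promoters of the pair of members with the smallest p among those that hold the motif are shown, 5′ to 3′ on the strand of the gene, with the motif, on either strand, in capitals. Their positions are Mcm5 chr8:75109259-75109558 on the plus strand, Cdc6 chr11:98907901-98908200 on the plus strand, Kif23 chr9:61946750-61947049 on the minus strand, Aurka chr2:172370521-172370820 on the minus strand, Nop2 chr6:125131633-125131932 on the plus strand and Nle1 chr11:82908346-82908645 on the minus strand.
Mcm5: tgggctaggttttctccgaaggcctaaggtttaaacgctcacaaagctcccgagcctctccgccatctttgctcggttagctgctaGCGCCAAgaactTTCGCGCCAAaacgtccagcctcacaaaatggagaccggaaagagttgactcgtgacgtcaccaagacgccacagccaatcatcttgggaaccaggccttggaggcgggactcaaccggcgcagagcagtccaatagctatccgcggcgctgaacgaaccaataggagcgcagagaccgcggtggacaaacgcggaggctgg
Cdc6: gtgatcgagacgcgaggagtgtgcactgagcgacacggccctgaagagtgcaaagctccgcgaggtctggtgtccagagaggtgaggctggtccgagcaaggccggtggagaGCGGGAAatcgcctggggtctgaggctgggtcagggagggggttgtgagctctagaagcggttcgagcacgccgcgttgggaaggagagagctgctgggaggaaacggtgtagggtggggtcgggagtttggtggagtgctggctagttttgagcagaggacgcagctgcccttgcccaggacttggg
Kif23: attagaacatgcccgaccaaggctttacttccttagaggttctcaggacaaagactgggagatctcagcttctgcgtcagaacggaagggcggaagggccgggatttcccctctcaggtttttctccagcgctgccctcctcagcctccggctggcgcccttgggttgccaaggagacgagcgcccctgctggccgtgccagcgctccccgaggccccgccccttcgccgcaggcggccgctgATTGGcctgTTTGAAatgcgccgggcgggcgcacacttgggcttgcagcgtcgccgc
Aurka: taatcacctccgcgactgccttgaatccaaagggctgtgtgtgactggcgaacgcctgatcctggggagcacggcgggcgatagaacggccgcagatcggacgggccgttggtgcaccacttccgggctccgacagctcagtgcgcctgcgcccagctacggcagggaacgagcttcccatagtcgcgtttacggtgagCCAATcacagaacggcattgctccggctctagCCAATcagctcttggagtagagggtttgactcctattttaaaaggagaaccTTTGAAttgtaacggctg
Nop2: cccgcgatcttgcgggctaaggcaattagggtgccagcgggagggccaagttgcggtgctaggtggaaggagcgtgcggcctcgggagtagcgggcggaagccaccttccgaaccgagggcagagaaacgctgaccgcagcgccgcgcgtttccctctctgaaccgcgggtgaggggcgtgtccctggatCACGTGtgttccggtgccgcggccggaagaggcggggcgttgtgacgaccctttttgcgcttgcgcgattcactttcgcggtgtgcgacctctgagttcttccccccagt
Nle1: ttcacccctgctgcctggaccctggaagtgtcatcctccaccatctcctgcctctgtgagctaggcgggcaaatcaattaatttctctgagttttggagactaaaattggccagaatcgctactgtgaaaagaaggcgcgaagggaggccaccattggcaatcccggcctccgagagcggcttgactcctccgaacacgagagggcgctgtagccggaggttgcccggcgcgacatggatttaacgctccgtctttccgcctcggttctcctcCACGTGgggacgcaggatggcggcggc
In this order the promoters hold 3 and 1 E2F sites, 1 TTTGAA with 1 CCAAT, 1 TTTGAA with 2 CCAAT, 1 and 1 E-box. Of these genes not yet described, the nucleolar methyltransferase gene Nop2 averaged 54.5 ± 4.80 CPM at E12.5 and 105 ± 3.11 CPM at E9.5 (log2 fold change -0.95 ± 0.069, adjusted p = 1.32e-09), and Nle1, a factor of large ribosomal subunit assembly, averaged 21.2 ± 1.22 CPM at E12.5 and 45.1 ± 2.58 CPM at E9.5 (log2 fold change -1.09 ± 0.082, adjusted p = 1.82e-09).

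Genes of energy metabolism shifted in a graded way. Of 19 fatty acid oxidation genes 16 rose and none fell, with a median log2 fold change of 0.59. Cpt1a, which commits fatty acids to mitochondrial import, had 58.8, 60.4, 53.4 and 67.8 CPM at E12.5, against 9.36, 10.9 and 5.48 CPM at E9.5 (log2 fold change 2.81 ± 0.18, adjusted p = 6.14e-10). The acyl-CoA dehydrogenase genes Acadl and Acadm averaged 309.9 ± 20.7 CPM at E12.5 and 87.2 ± 13.4 CPM at E9.5 (log2 fold change 1.83 ± 0.091, adjusted p = 7.49e-12) and 185 ± 12.3 CPM at E12.5 and 110.4 ± 8.67 CPM at E9.5 (log2 fold change 0.74 ± 0.077, adjusted p = 1.58e-07). Cpt1b, the muscle form of the import enzyme, averaged 42.6 ± 5.46 CPM at E12.5 and 39.2 ± 6.41 CPM at E9.5 and did not pass (log2 fold change 0.12 ± 0.12, adjusted p = 0.435), though it rose with the library set as a term (0.27, adjusted p = 0.00721). Among genes of fatty acid uptake and its regulation 12 of 16 rose and 2 fell. Fabp3, the heart fatty acid binding protein, had 238, 226, 250.2 and 209.7 CPM at E12.5, against 126, 104 and 101 CPM at E9.5 (log2 fold change 1.07 ± 0.13, adjusted p = 1.12e-06). The nuclear receptor gene Ppara was low, at 1.15, 1.81, 2.04 and 2.56 CPM at E12.5, against 0.211, 0.682 and 0.664 CPM at E9.5 (log2 fold change 1.87 ± 0.33, adjusted p = 9.7e-05). Ppargc1a, the co-activator of mitochondrial biogenesis, rose by less (log2 fold change 0.31 ± 0.083, adjusted p = 0.00359). Cd36, the fatty acid transporter of muscle, endothelium and macrophages, had 104, 105, 85.3 and 75.1 CPM at E12.5, against 66.4, 24.9 and 27.7 CPM at E9.5. The macrophage-high library of E9.5 stood apart from the other 2, and the log2 fold change was 1.54 within the macrophage-low and 0.57 within the macrophage-high libraries (log2 fold change 1.22 ± 0.31, adjusted p = 0.00484 over all, or 1.82 without E9.5 replicate 1).

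Glycolytic genes and glucose and lactate transporters fell in 17 of 23 cases and rose in 4, with a median log2 fold change of -0.37. Slc2a1, the main glucose transporter of embryonic tissue, had 431, 449, 534 and 525 CPM at E12.5, against 1275, 1224 and 1354 CPM at E9.5, a fall that every library shows (log2 fold change -1.41 ± 0.12, adjusted p = 1.74e-08). Lactate dehydrogenase A (Ldha) had 1592, 1569, 1985 and 1610.1 CPM at E12.5, against 3193, 2789.9 and 3151 CPM at E9.5 (log2 fold change -0.85 ± 0.095, adjusted p = 4.1e-07). Hexokinase 2 (Hk2) averaged 101 ± 11.3 CPM at E12.5 and 211 ± 31.3 CPM at E9.5 (log2 fold change -1.07 ± 0.20, adjusted p = 0.000301), and enolase 1 (Eno1) and the lactate exporter gene Slc16a3 fell by like amounts (-1.12 ± 0.085 and -1.04 ± 0.15). The members that rose were Ldhb, Slc2a4, Pfkm and Pgam2, isoforms of heart or striated muscle, while the muscle isoform Eno3 fell (log2 fold change -0.361 ± 0.076, adjusted p = 0.000529). Pfkm, Pgam2 and Eno3 are named after their values were seen. Slc2a4 averaged 27.5 ± 1.32 CPM at E12.5 and 12.99 ± 1.06 CPM at E9.5 (log2 fold change 1.08 ± 0.08, adjusted p = 1.61e-09).

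Citric acid cycle and pyruvate dehydrogenase genes rose in 16 of 21 cases with none lower, at a median of 0.39, and in 10 within the macrophage-high libraries. The isocitrate dehydrogenase gene Idh2 had 1101, 1022, 1089 and 1127 CPM at E12.5, against 481, 511 and 476 CPM at E9.5 (log2 fold change 1.15 ± 0.079, adjusted p = 6.07e-10). The malate dehydrogenase gene Mdh1, of the cytosol, averaged 767 ± 51.95 CPM at E12.5 and 335 ± 46.9 CPM at E9.5 (log2 fold change 1.20 ± 0.087, adjusted p = 1.28e-09). Of the 21, 2 rose at least 2-fold. Citrate synthase (Cs) did not pass the test (log2 fold change -0.083 ± 0.063, adjusted p = 0.289). Nor did the isocitrate dehydrogenase subunit gene Idh3a (log2 fold change -0.079 ± 0.082, adjusted p = 0.457). The log2 fold change of Idh3a was 0.19 within the macrophage-low and -0.30 within the macrophage-high libraries. Nuclear genes of the respiratory chain rose in 21 of 32 cases with none lower, at a median of 0.41. Their count depended on the set of libraries: 28 rose within the macrophage-low libraries (median 0.41) and 8 within the macrophage-high libraries (median 0.24), where E9.5 has 1 library. Without E9.5 replicate 3 the count was 13. Ndufv1 of complex I (log2 fold change 0.70 ± 0.09, adjusted p = 2.47e-06) and Uqcrc2 of complex III (log2 fold change 0.53 ± 0.068, adjusted p = 2.35e-06) are examples. The 13 protein-coding genes of the mitochondrial genome rose in 9 cases, and in 13 within the macrophage-low and 2 within the macrophage-high libraries. The oxidase subunit gene mt-Co1 had 13805, 13738, 13316 and 16378 CPM at E12.5, against 8097, 7937 and 7457 CPM at E9.5 (log2 fold change 0.87 ± 0.13, adjusted p = 1.44e-05). The muscle form Cox8b of another oxidase subunit had 6.61, 6.97, 10.8 and 6.55 CPM at E12.5, against 0.755, 0.389 and 0.266 CPM at E9.5 (log2 fold change 4.01 ± 0.53, adjusted p = 1.93e-05). Within the macrophage-high libraries the citric acid cycle, nuclear respiratory chain and mitochondrially encoded lists each also held a member that fell, although none fell over all libraries.

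In the creatine system Ckm, the muscle creatine kinase, had 56.98, 42.2, 56.3 and 35.3 CPM at E12.5, against 5.83, 2.79 and 1.73 CPM at E9.5 (log2 fold change 3.78 ± 0.496, adjusted p = 2.04e-05, or 4.40 without E9.5 replicate 1), while the brain form Ckb had 179, 150.4, 174 and 158 CPM at E12.5, against 341, 332 and 388 CPM at E9.5 (log2 fold change -1.10 ± 0.10, adjusted p = 2.42e-08), so their changes were opposite. The mitochondrial form Ckmt2 (log2 fold change 1.499 ± 0.12, adjusted p = 7.01e-09) and the creatine transporter Slc6a8 (log2 fold change 0.62 ± 0.072, adjusted p = 6.5e-07) rose. Of 16 hypoxia response genes 3 rose and 3 fell, and Vegfa averaged 143 ± 17.1 CPM at E12.5 and 138 ± 4.09 CPM at E9.5 (log2 fold change 0.048 ± 0.15, adjusted p = 0.815).

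Enzymes of the mevalonate pathway, which makes isoprenoid precursors of cholesterol and of prenyl groups and is named in the series title, fell in 7 of 9 cases, with none higher and a median log2 fold change of -0.46. Mvd, the last decarboxylation step, had 23.4, 21.03, 24.7 and 24.2 CPM at E12.5, against 42.2, 41.96 and 42.8 CPM at E9.5 (log2 fold change -0.86 ± 0.094, adjusted p = 3.12e-07). Its E9.5 libraries were within 1 CPM of each other and all above those of E12.5. Hmgcs1, an early step, averaged 156 ± 2.82 CPM at E12.5 and 195 ± 12.496 CPM at E9.5 (log2 fold change -0.32 ± 0.085, adjusted p = 0.00384). Idi1 averaged 26.7 ± 1.603 CPM at E12.5 and 39.3 ± 2.31 CPM at E9.5 (log2 fold change -0.56 ± 0.088, adjusted p = 2.65e-05) and Fdps averaged 37.8 ± 4.18 CPM at E12.5 and 60.3 ± 7.83 CPM at E9.5 (log2 fold change -0.67 ± 0.12, adjusted p = 8.53e-05), with 26.7% of the exon length of Fdps shared with a gene on the same strand. Of 12 enzymes of the cholesterol branch 10 fell and none rose, at a median of -0.47. The squalene epoxidase gene Sqle averaged 61.1 ± 2.41 CPM at E12.5 and 89.01 ± 5.66 CPM at E9.5 (log2 fold change -0.54 ± 0.081, adjusted p = 1.44e-05).

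Blood cell transcripts rose unevenly. The embryonic beta globin gene Hbb-y had 27785, 17889.7, 26135 and 9680.1 CPM at E12.5, against 2557, 2272 and 1547 CPM at E9.5. Replicate 4 of E12.5 was the lowest of its stage and still above E9.5 (log2 fold change 3.26 ± 0.69, adjusted p = 0.00137). Hbb-bh1, the other early beta globin, had 955, 1428, 4289 and 743 CPM at E12.5, against 2684, 1935 and 1640.3 CPM at E9.5 and overlapped (log2 fold change -0.17 ± 0.69, adjusted p = 0.86). Its log2 fold change was -1.24 within the macrophage-low libraries, where it fell (adjusted p = 1.11e-06), and -0.27 within the macrophage-high ones. It was -1.002 without E12.5 replicate 3 and 0.092 without E12.5 replicate 4. All 4 adult globin genes rose. Hbb-bt had 724, 665, 898 and 339.8 CPM at E12.5, against 15.2, 5.74 and 4.85 CPM at E9.5 (log2 fold change 6.25 ± 0.55, adjusted p = 4.18e-07, or 6.96 without E9.5 replicate 1), although adult globin paralogues share reads and single values are uncertain. Other red cell genes rose in 6 of 11 cases, among them the band 3 gene Slc4a1 (log2 fold change 2.16 ± 0.34, adjusted p = 0.000101) and the haem synthesis gene Alas2 (log2 fold change 2.22 ± 0.37, adjusted p = 0.000167). Within the macrophage-low and the macrophage-high libraries the log2 fold changes were 1.28 and 2.57 for Slc4a1 and 1.21 and 2.41 for Alas2. The medians over the red cell list were 0.29 and 1.42, and some members were lower at E12.5 within the macrophage-low libraries. Megakaryocyte and platelet genes all rose, 9 of 9, with a median log2 fold change of 2.42. Platelet factor 4 (Pf4) had 21.2, 26.98, 14.98 and 9.77 CPM at E12.5, against 5.22, 3.51 and 1.46 CPM at E9.5 (log2 fold change 2.42 ± 0.44, adjusted p = 0.00031). Treml1 averaged 8.84 ± 2.87 CPM at E12.5 and 0.835 ± 0.168 CPM at E9.5 (log2 fold change 3.40 ± 0.35, adjusted p = 1.39e-07).

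Resident macrophage genes rose in 11 of 16 cases. Cx3cr1, the fractalkine receptor of macrophages that derive from the yolk sac, had 8.61, 9.16, 8.24 and 9.19 CPM at E12.5, against 0.634, 0.357 and 0.399 CPM at E9.5. These values separate the stages in both sets of libraries (log2 fold change 4.23 ± 0.18, adjusted p = 1.09e-12; 4.62 within the macrophage-low and 3.77 within the macrophage-high libraries). F13a1 had 8.09, 7.87, 6.29 and 7.47 CPM at E12.5, against 0.211, 0.357 and 0.432 CPM at E9.5 (log2 fold change 4.47 ± 0.23, adjusted p = 1.51e-11). Csf1r, the macrophage growth factor receptor, had 23.6, 24.9, 20.1 and 21.4 CPM at E12.5, against 7.46, 1.75 and 1.43 CPM at E9.5. Its E9.5 value was highest in the macrophage-high library, so that the log2 fold change was 3.77 within the macrophage-low and 1.62 within the macrophage-high libraries, and 2.65 ± 0.48 over all (3.82 without E9.5 replicate 1). None of the 8 activated macrophage transcripts that define the sets passed the test over all libraries (edgeR), none had an unadjusted p under 0.05, and none passed in DESeq2, while 3 rose without E9.5 replicate 1.

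Markers of nerve and neighbouring tissue differed from list to list. Of 11 neural crest and Schwann cell genes 3 rose, and none fell; 6 rose without E9.5 replicate 1. Ednrb, an endothelin receptor also found outside the crest, averaged 174 ± 11.1 CPM at E12.5 and 62.6 ± 7.19 CPM at E9.5 (log2 fold change 1.47 ± 0.11, adjusted p = 1.62e-09). Sox10, the defining factor, averaged 1.74 ± 0.179 CPM at E12.5 and 1.47 ± 0.799 CPM at E9.5 (log2 fold change 0.24 ± 0.34, adjusted p = 0.586), and its sign turned without E9.5 replicate 3 (-0.14). Of 13 neuronal genes 3 rose and 1 fell. Tubb3 had 28.7, 21.6, 20.9 and 8.61 CPM at E12.5, against 30.01, 17.8 and 5.11 CPM at E9.5, overlapping between the stages without passing the test (log2 fold change 0.17 ± 0.54, adjusted p = 0.815). Its log2 fold change was 0.80 without E9.5 replicate 1, -0.26 without E9.5 replicate 3, and -0.39 and -0.34 within the macrophage-low and macrophage-high libraries, so that no direction can be given. Alpha-fetoprotein (Afp), made by yolk sac and liver, had 0.0548, 0.0541, 0.363 and 0.106 CPM at E12.5, against 0.211, 45.3 and 0.432 CPM at E9.5. One E9.5 library alone carried it, with a log2 fold change of -6.63 ± 1.84 over all and -1.07 without that library, and the same library had the highest level of Ttr, at 0.423, 4.67 and 0.432 CPM over the 3 E9.5 libraries, and of Epcam, at 0.181, 2.86 and 0.332 CPM. The part of attached endoderm in other results was not tested, and without E9.5 replicate 2 the counts of genes that rose and fell were 4302 and 3916. Of 5 neural tube genes tested, 1 rose and 1 fell. Sox3, the one that rose, had 16.3, 15.03, 19.4 and 16.8 CPM at E12.5, against 4.41, 3.60 and 2.62 CPM at E9.5 (log2 fold change 2.25 ± 0.19, adjusted p = 9.41e-09). Of 11 pharyngeal arch and skeletal muscle genes tested, 6 rose and 1 fell, with a median log2 fold change of 1.40. Their summed level was 6.49 to 11.1 CPM at E12.5 and 4.02 to 5.83 CPM at E9.5. The skeletal muscle factor Myog was at 0.302, 0.460, 0.477 and 0.264 CPM at E12.5, against 0, 0 and 0 CPM at E9.5, at least 3.95-fold higher at E12.5 against the mean E9.5 detection limit of 3 counts a library.

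Within families of signalling genes, some members rose and others fell. Whether one member replaced another was not tested. Of 17 WNT pathway genes 9 rose and 6 fell. The secreted WNT antagonists Sfrp1 and Sfrp2 rose, Sfrp1 with 312, 319, 320.5 and 305 CPM at E12.5, against 62.2, 84.2 and 77.01 CPM at E9.5 (log2 fold change 2.08 ± 0.091, adjusted p = 1.42e-12) and Sfrp2 with 154, 95.9, 101 and 101 CPM at E12.5, against 2.75, 3.15 and 2.62 CPM at E9.5 (log2 fold change 5.31 ± 0.33, adjusted p = 3.59e-09). Sfrp5, a relative that marks inflow progenitors, went the other way with 4.61, 5.97, 5.45 and 6.18 CPM at E12.5, against 26.5, 40.1 and 48.5 CPM at E9.5 (log2 fold change -2.79 ± 0.21, adjusted p = 4e-09). The receptor gene Fzd1 averaged 116 ± 11.9 CPM at E12.5 and 34.9 ± 6.65 CPM at E9.5 (log2 fold change 1.73 ± 0.12, adjusted p = 6.59e-10). In the retinoic acid pathway 6 of 15 rose and 4 fell. Crabp2, which carries retinoic acid to its receptors, had 2.08, 2.08, 3.04 and 1.87 CPM at E12.5, against 17.97, 18.01 and 22.6 CPM at E9.5 (log2 fold change -3.10 ± 0.28, adjusted p = 3.32e-08). The receptor gene Rarg rose (log2 fold change 1.43 ± 0.12, adjusted p = 6.42e-09).

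Of 13 NOTCH genes 7 rose and 3 fell, with the related target genes Heyl and Hey1 in opposite directions. Heyl, found in mural cells and cushion tissue, had 13.5, 14.1, 14.8 and 13.1 CPM at E12.5, against 2.87, 2.21 and 2.16 CPM at E9.5 (log2 fold change 2.52 ± 0.10, adjusted p = 4.67e-13). Hey1, of atrial muscle and endothelium, had 24.7, 23.2, 28.3 and 30.1 CPM at E12.5, against 57.8, 54.5 and 61.1 CPM at E9.5 (log2 fold change -1.12 ± 0.089, adjusted p = 3.82e-09). The ligand gene Jag1 fell (log2 fold change -0.69 ± 0.092, adjusted p = 4.11e-06). Dll1 rose (log2 fold change 1.23 ± 0.13, adjusted p = 2.52e-07).

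BMP and TGF-beta genes were divided, 6 up and 5 down of 18. Bmp2, the signal of the atrioventricular canal, had 29.5, 31.1, 30.9 and 38.3 CPM at E12.5, against 64.1, 80.6 and 86.3 CPM at E9.5 (log2 fold change -1.25 ± 0.11, adjusted p = 3.02e-08). Tgfb3 averaged 36.6 ± 2.25 CPM at E12.5 and 9.97 ± 0.939 CPM at E9.5 (log2 fold change 1.88 ± 0.11, adjusted p = 3.94e-11). Inhba, which encodes the activin A subunit, averaged 12.4 ± 1.82 CPM at E12.5 and 0.942 ± 0.498 CPM at E9.5 (log2 fold change 3.71 ± 0.26, adjusted p = 7.37e-10). Bmp4 did not pass the test (log2 fold change -0.16 ± 0.15, adjusted p = 0.397).

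Growth factor genes rose in 15 of 22 cases and fell in 5. Igf1 had 112, 106, 87.7 and 92.01 CPM at E12.5, against 39.4, 30.5 and 27.3 CPM at E9.5 (log2 fold change 1.62 ± 0.13, adjusted p = 8.59e-09). Igf2, an imprinted growth factor gene, averaged 6095 ± 594 CPM at E12.5 and 4289 ± 274 CPM at E9.5 (log2 fold change 0.51 ± 0.081, adjusted p = 3.18e-05). Fgf9, a signal of epicardium and endocardium to muscle, averaged 8.87 ± 1.13 CPM at E12.5 and 4.15 ± 1.78 CPM at E9.5 (log2 fold change 1.09 ± 0.23, adjusted p = 0.000568). Vegfc averaged 24.7 ± 1.23 CPM at E12.5 and 10.9 ± 0.763 CPM at E9.5 (log2 fold change 1.19 ± 0.084, adjusted p = 8.75e-10). Among imprinted genes 3 of 16 rose and 5 fell. H19 had 11731, 11778, 14678 and 11303 CPM at E12.5, against 7155, 7395 and 6703 CPM at E9.5 (log2 fold change 0.80 ± 0.083, adjusted p = 1.54e-07). Peg10 averaged 83.6 ± 7.32 CPM at E12.5 and 189 ± 42.7 CPM at E9.5 (log2 fold change -1.18 ± 0.14, adjusted p = 1.74e-06).

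The other stages place these differences in time, as mean levels without a further test. Each series of 5 values runs through E9.5, E10.5, then E12.5, E14.5 and lastly E16.5. Eln had means of 6.30, 22.9, 571, 1510.4 and 1589 CPM, so that most of its change came after E10.5 and went on after E12.5. Lum had 0.457, 4.21, 84.4, 86.5 and 77.6 CPM, close to its later level by E12.5. Postn had 12.4, 89.99, 384, 501 and 725 CPM. Lin28a had 140.1, 17.5, 1.99, 0.935 and 0.456 CPM, and Tdgf1 had 31.5, 2.81, 0.113, 0.0395 and 0.105 CPM, both lower at each stage up to E12.5. Ncl had 1229, 979.6, 576, 529.7 and 432 CPM, and Kif23 had 142, 109, 84.02, 73.5 and 65.6 CPM. Pln had 129, 347, 692, 1026 and 1589.6 CPM, and Cpt1a had 8.57, 32.3, 60.1, 82.4 and 83.8 CPM. Myh6 had 5804, 4449, 2791, 2240.2 and 2913 CPM. Slc2a1 had 1284, 931, 485, 341 and 217 CPM.

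**Figure D4:**
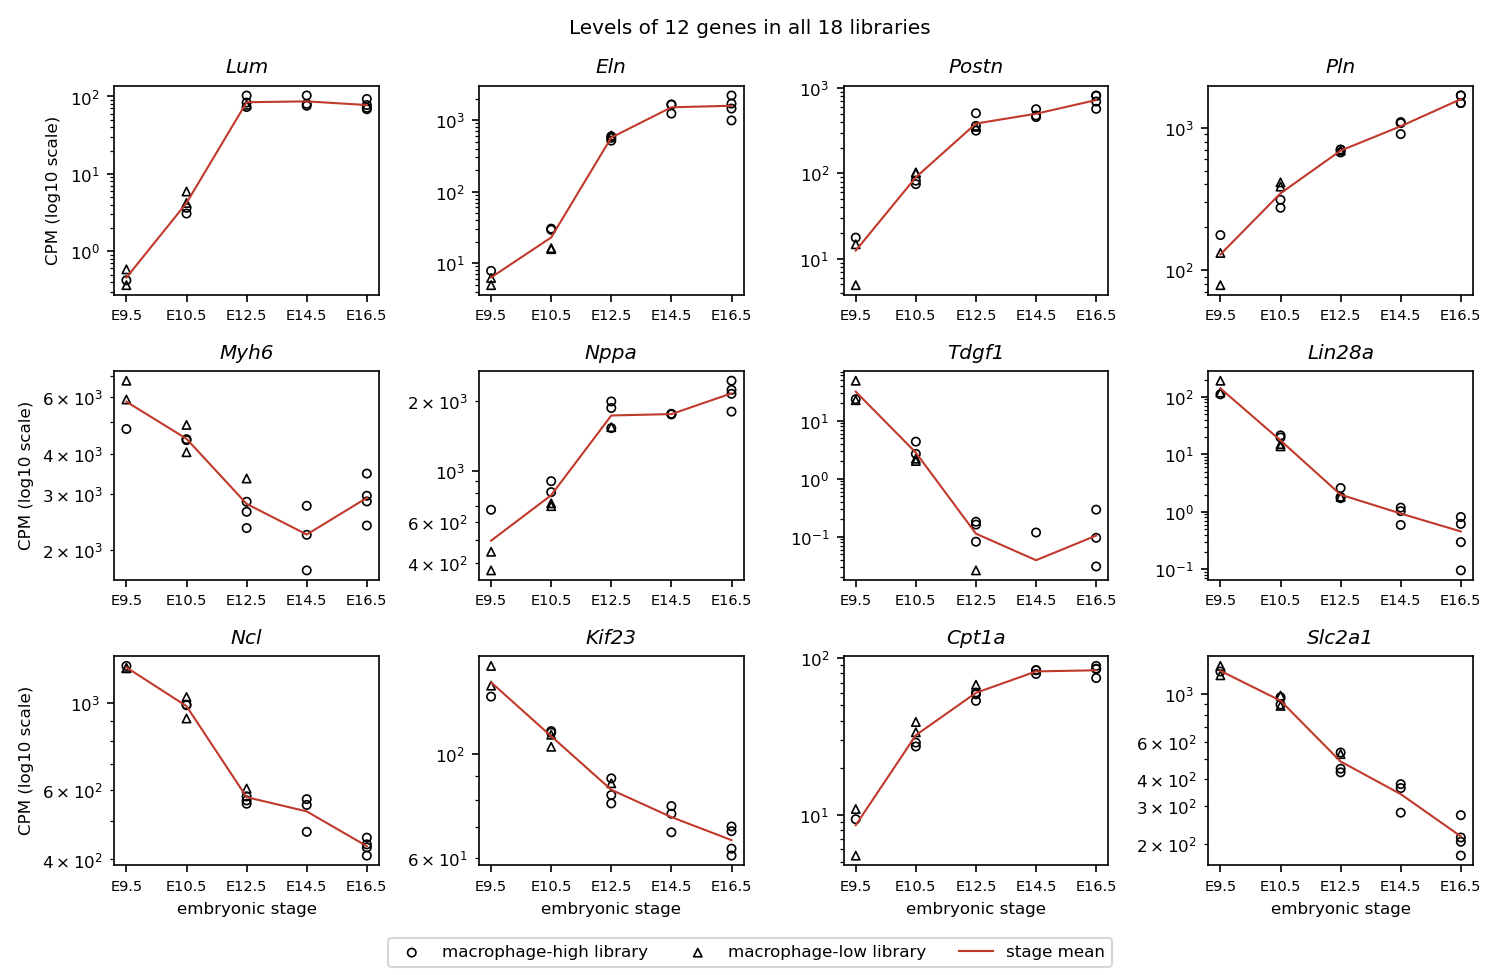
Level in CPM (y axis, log10 scale) of 12 genes in each of the 18 libraries by embryonic stage (x axis), with a line through the stage means, circles for macrophage-high and triangles for macrophage-low libraries (for Tdgf1, 2 libraries of E14.5 and 1 of E16.5 with 0 counts cannot be drawn and enter the means). Eln, Lum, Postn and Pln are higher at E12.5 than at E9.5, and Lin28a, Tdgf1 and Ncl lower.

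The comparison can be read separately in the libraries of each set, which share no library: 1 E12.5 against 2 E9.5 libraries in the macrophage-low set and 3 E12.5 against 1 E9.5 in the macrophage-high set. Over the 53 gene lists the median log2 fold change had the same sign in both sets for 44. It was of opposite sign for calcium handling, second heart field, Hox, muscle splicing, hypoxia response, activated macrophage, endoderm and liver, BMP and TGF-beta and imprinted. In the fibroblast list the medians were 3.24 in the macrophage-low and 3.82 in the macrophage-high libraries, in ribosome biogenesis -0.82 and -0.91, and in resident macrophage genes 4.02 and 1.37.

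Some named genes that passed over all libraries did not pass within one set, with fewer libraries. Within the macrophage-high libraries the call was lost, with the direction kept, for 13 of them. Their log2 fold changes there were -0.21 for Actc1, -0.35 for Afp, -0.11 for Gata4, 3.23 for Hbb-y, -0.91 for Hk2, -0.19 for Kdr, -0.26 for Nfatc1, -0.49 for Nkx2-5, 0.29 for Nppb, -0.31 for Nrg1, -0.362 for Ryr2, 0.29 for Sox9 and 0.21 for Wt1, with adjusted p-values of 0.0807 to 0.878. Myh11 and Ttr had no call there and the opposite sign (0.0039 and 0.73). Within the macrophage-low libraries it was lost for 11. The log2 fold changes there were -0.25 for Actc1, -7.70 for Afp, 0.67 for Ccnd1, -0.21 for Kdr, -1.20 for Myh11, 1.45 for Rgs5, 0.71 for Tbx18, 2.14 for Tcf21, -2.40 for Ttr, 0.69 for Twist1 and 0.40 for Wt1, with adjusted p-values of 0.0539 to 0.474. Cpt1b and Rbm20 rose within each set, and Hbb-bh1 and Mki67 fell within the macrophage-low libraries, although none of these 4 passed over all. A gene can also pass in both sets by unlike amounts: within the macrophage-low and macrophage-high libraries the log2 fold changes were 7.25 and 5.21 for Clca3a1, -7.57 and -4.87 for Cck, and 3.70 and 1.76 for Fabp4. The difference between the sets was not tested.

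**Figure D5:**
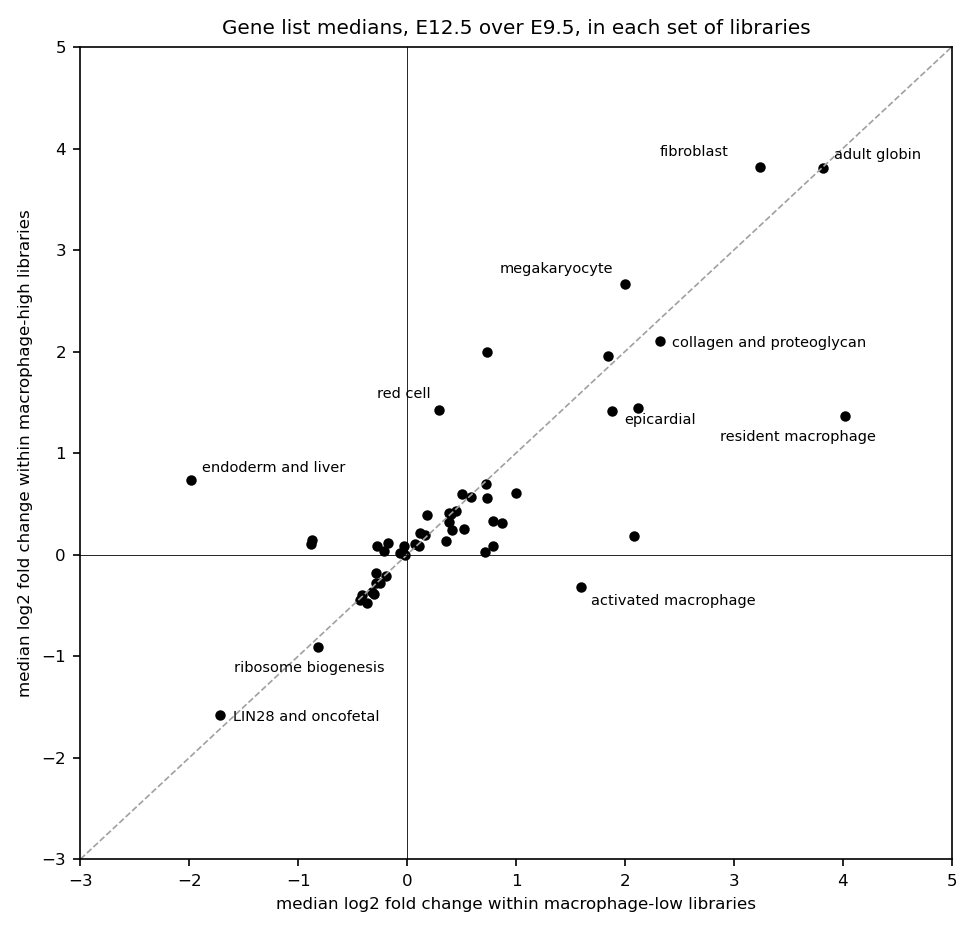
Median log2 fold change of E12.5 over E9.5 for each gene list within the macrophage-low libraries (x axis) and within the macrophage-high libraries (y axis), with the line of equal values dashed. Most lists lie near the line. Among those further away, the resident macrophage, activated macrophage and neural tube lists lie below it. The endoderm and liver, primitive globin and red cell lists lie above it.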

How the data were processed

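Whole hearts of wild-type mouse embryos were profiled by RNA sequencing, and the authors deposited one table of raw gene counts per library, with 49315 gene identifiers each, without normalization. Per the submitters' processing notes, Trimmomatic 0.36, STAR 2.5.2b and featureCounts from Subread 1.5.2 were used, with builds GRCm38 and mm10. For the strand setting, and likewise for the annotation used in counting, the sources used here give nothing. Identifiers were paired with symbols from the reference tables for 48970 of them, and GENCODE M21, which holds 49056 of them, gave exon lengths and overlaps. Identifiers without a symbol held under 0.02% of the counts of each library.

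Counts of all 18 libraries were fitted with edgeR 4.0.16 in R 4.3.3 (filterByExpr by stage, TMM scaling, robust quasi-likelihood fit on stage alone), and E12.5 was tested against E9.5 with Benjamini-Hochberg adjustment over 18885 genes at a threshold of 0.05. The procedure was tested on simulated data. Errors after ± are SD for levels and SE for log2 fold changes. Isoform shares were tested with an exact two-sided permutation test (scipy 1.17.1, Python 3.11.15). A detection limit is 3 counts in a library and covers counting error only. The principal component analysis used log2 CPM with a prior count of 2. No library repeats another: in every pair within a stage the chi-square divided by its degrees of freedom was 7.03 to 79.8, above sampling noise.

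Named are the 12 largest rises and 12 largest falls among protein-coding genes that passed without overlap between the stages and whose mean reached 10 CPM in 1 of them (without mitochondrial, ribosomal protein, haemoglobin, predicted and activated macrophage genes), preset anchor genes of each list, and up to 3 members per list with the smallest p in the direction in which more members passed; some genes that this rule takes are not reported here. The members and lists were chosen with earlier results of these data known. Macrophage-low libraries have under 10 CPM and macrophage-high libraries over 100 CPM of the 8 activated macrophage transcripts. Alternatives were RLE scaling, library totals alone, no filter, a filter of at least 10 CPM in 3 libraries, DESeq2 1.42.0, the 7 libraries alone, the library set or the replicate number as a term, each set alone, and each replicate left out. The other stages enter the shared estimate of spread and the levels by stage, and their comparisons are not analysed here.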

Additional observations from a re-analysis of the deposited data

Results flagged for a closer look

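Within the 4 E12.5 libraries, 1 library stood far from the other 3 for 16 of the 222 gene levels and isoform shares that the text reports, by the size of its gap to the nearest other library against the whole range. Chance alone gives such a gap in about 1 in 20 groups of values. The E9.5 stage, with 3 libraries, was not examined in this way. Replicates 1 to 4 accounted for 3, 3, 4 and 6 of the 16 values.

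In replicate 1, the matrix genes Bgn (189.7 CPM, against 151 to 155 CPM in the other E12.5 libraries) and Mfap2 (122 CPM, against 96.6 to 101 CPM) and the WNT antagonist gene Sfrp2 (154 CPM, against 95.9 to 101 CPM) were high. In replicate 2, Lin28a was high (2.60 CPM, against 1.73 to 1.82 CPM), the share of Lin28b in its pair with Lin28a was low (60.6%, against 67.6 to 68.4%), and the channel gene Kcnk3 was low (75.5 CPM, against 83.9 to 85.5 CPM). In replicate 3, H19 (14678 CPM, against 11303 to 11778 CPM), Ldha (1985 CPM, against 1569 to 1610.1 CPM), Cox8b (10.8 CPM, against 6.55 to 6.97 CPM) and Afp (0.363 CPM, against 0.0541 to 0.106 CPM) were high.

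In replicate 4, the macrophage-low library of its stage, the endothelial genes Cdh5 (232 CPM, against 190.3 to 193 CPM) and Apln (8.45 CPM, against 6.89 to 6.99 CPM), the receptor gene Fzd1 (133 CPM, against 108 to 111 CPM), Cpt1b (50.8 CPM, against 39.7 to 40.1 CPM) and mt-Co1 (16378 CPM, against 13316 to 13805 CPM) were high, and decorin, Dcn, was low (62.1 CPM, against 72.2 to 73.4 CPM). The call of Cdh5 was lost without this library.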

How the results depend on the processing

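Of 207 genes named in the text, 180 kept direction and call in every alternative that tested them. RLE scaling and library totals alone changed no call of these genes, DESeq2 changed 1 and the 7 libraries alone changed 7. The cause of the changes below was not tested. Genes that rose numbered 4750 and those that fell 4462 (at least 2-fold 2196 and 868). With at least 10 CPM in 3 libraries, fewer genes were tested and the 2-fold counts were 943 and 226, and within the macrophage-high libraries 2954 genes fell. With 1 replicate left out, 4155 to 5243 genes rose and 3699 to 4655 fell. In the 7 libraries alone 4133 genes rose and 3801 fell. There Afp, Fbn1, Kdr, Myh11, Nppb, Ttr and Wt1 did not pass, with adjusted p-values of 0.0540 to 0.184 (edgeR), at 0.123 for Wt1 and 0.113 for Nppb. Same-numbered libraries of the stages did not deviate together (correlations 0.304, -0.543 and -0.277), and with the replicate block 4592 genes rose and 4317 fell, while no endoderm and liver gene fell (0, against 2).

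List counts below are over all members that could be tested under each setting, which can include members not tested over all libraries. Within the macrophage-high libraries the counts were 4 for core sarcomere higher (9 over all), 6 for calcium handling lower (10), 1 for Hox lower (3), 3 for muscle splicing lower (5), 10 for citric acid cycle higher (16), 8 for nuclear respiratory chain higher (21), 2 for mitochondrially encoded higher (9), 1 for neuronal higher (3), 0 for primitive globin higher (2), 0 for endoderm and liver lower and 3 for imprinted lower (5). Within the macrophage-low libraries they were 5 for Hox lower, 5 for epicardial higher (13), 0 for neuronal higher, 1 for activated macrophage higher (0) and 1 for endoderm and liver lower. With at least 10 CPM they were 1 for second heart field lower (7), 0 for Hox lower, 0 for neuronal higher, 4 for megakaryocyte higher (9), 0 for endoderm and liver lower and 1 for pharyngeal arch and skeletal muscle higher (6). In the 7 libraries alone 1 neuronal gene rose and 0 endoderm and liver genes fell, with the library set as a term 1 primitive globin rose and 0 endoderm and liver genes fell, in DESeq2 1 endoderm and liver gene fell, and with no filter 4 fell and 2 neural tube genes rose (1).

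With 1 replicate left out, the lowest and highest counts were 3 and 5 for muscle splicing lower, 13 and 23 for nuclear respiratory chain higher, 3 and 6 for endocardial higher, 3 and 6 for neural crest and Schwann cell higher, 1 and 2 for primitive globin higher, 0 and 3 for activated macrophage higher, 0 and 5 for endoderm and liver lower and 1 and 2 for neural tube higher.

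Of single genes, Myh11 (0.0039 on the log2 scale) and Ttr (0.73) reversed within the macrophage-high libraries, and Ttr also without E9.5 replicate 2 (0.60, with -1.98 as the lowest value when a replicate was left out). Without division by exon length, the difference in isoform share in percentage points was 34.6 for Myl2 (26.1 with it), 1.99 for Cox8b (3.36), 5.77 for Eno3 (11.1), 13.97 for Ldhb (23.5), -40.4 for Cpt1b (-29.4), -14.2 for Ccnd2 (-20.7) and 58.8 for Lin28b (54.6), each with its direction kept. Within a set, 1 stage has a single library, so these counts rest on a spread borrowed from other stages. Levels under about 0.1 CPM rest on a few counts and are near the limit of detection.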
